A study of Mus musculus and blank sample with 768 samples.

Results

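The angiopoietin-Tie axis was followed in single mouse cells through 5 genes, Tek, Tie1, Ptprb, Angpt2 and Angpt1. They were chosen by name, as the receptors, the receptor phosphatase and the secreted ligands of the axis, and all 5 were found among the 51734 gene symbols of both read count tables. Tek encodes TIE2, the receptor tyrosine kinase of endothelial cells that binds the angiopoietins, and Tie1 encodes its partner receptor, which modulates TIE2 signalling. Angpt1 encodes angiopoietin 1, an agonist of TIE2 made mainly by pericytes, other mural cells and platelets, which keeps vessels quiescent through PI3K, AKT and the inhibition of FOXO1. Angpt2 encodes angiopoietin 2, which endothelial cells make and store and which acts as a context-dependent antagonist or agonist of TIE2. Ptprb encodes VE-PTP, a receptor type phosphatase of endothelial cells that dephosphorylates TIE2 and keeps VE-cadherin junctions closed. In lymphatic vessels angiopoietin 2 is known as an agonist needed for vessel maturation.

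Cells had been sorted singly into wells from mouse tumours, lymph nodes (LN) and blood, on the leukocyte protein CD45, the endothelial protein CD31 and GFP. The tumour gates were macrophages (CD45+ CD31- GFP-, plate KM1), GFP- endothelial cells (CD45- CD31+, plate KM2, called tumour EC) and GFP+ endothelial cells (CD45- CD31+, plates KM3 and KM4), which the labels name cells of the Csf1r lineage and which are called tumour CLEC. The LN gates, all CD45- CD31+, were GFP- cells (labelled as endothelial cells), GFP+ cells (labelled as CLEC) and GFPlow cells (labelled as potential CLEC). GFP- and GFP+ cells came from pools A, B and C, and GFPlow cells from pools B, C and D. The labels used here give no strain, age, tumour model or Cre driver, and they do not say which animal a cell came from, so a gate is 1 sample. No difference was tested, no p-value is given, and the plates and pools serve only to show how far a value moved between collections of wells.

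Of 766 wells with a cell, 592 passed the filter: 81 tumour macrophages, 84 tumour EC (plate KM2), tumour CLEC numbering 84 (plate KM3) and 85 (plate KM4), 74 LN GFP- cells, 98 LN GFP+ cells, 79 LN GFPlow cells and 7 blood cells. The median depth of the 6 tumour and LN gates ranged from 609243.5 to 1238819 reads a cell. In the tumour, each gate filled plates of its own, so gate and plate cannot be told apart there. Defining markers followed the tumour gates: the 8 pan-endothelial genes summed to 6924 CPM (reads of a gene per 1000000 counted reads) in tumour CLEC, 8896 in tumour EC and 47.7 in macrophages, and Ptprc, the CD45 gene, had 0 reads in both endothelial gates. In the LN, 10 lymphatic endothelial genes summed to 1225, 1619 and 1838 CPM in GFP-, GFP+ and GFPlow cells, and 10 blood endothelial genes to 9182, 2363 and 2290. Clusters of LN cells were named from such markers, without the 5 genes or their pathway lists entering the clustering. By cluster, 62.2% of LN GFP- cells were blood-like and 37.8% lymphatic-like, while 83.7% of GFP+ and 78.5% of GFPlow cells were lymphatic-like and 16.3% and 18.99% stayed unnamed. The 6 platelet genes also moved with the LN gates, at 18.1, 658 and 491 CPM in GFP-, GFP+ and GFPlow cells. Of these genes Gp1bb had 0 reads in all 3 gates and Gp9 in the GFP+ and GFPlow gates. Itga2b, another of them, was also listed as a marker of sinus floor lymphatic cells, so this sum is not particular to platelets. The 11 fibroblast and pericyte genes summed to 29.6, 308.1 and 162.3 CPM in the same order, with Pdgfrb at 0 reads in all 3 gates and Rgs5 at 265.3 CPM in GFP+ and 8.95 in GFP- cells. Their part in the differences between LN gates was not tested.

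The receptor genes lie on mouse chromosome 4 (GRCm38, GENCODE vM21). Tek spans 94739289 to 94874976 on the plus strand and Tie1 spans 118471191 to 118490061 on the minus strand. Ptprb spans 116275523 to 116389535 on the plus strand of chromosome 10. Angpt2 (chromosome 8, 18690263 to 18741562, minus strand) lies within an intron of Mcph1 and shares no exon bases with it, and Mcph1 was at 8.19 to 27.9 CPM in the 6 gates. Angpt1 (chromosome 15, 42424723 to 42676977, minus strand) shares 737 exon bases with Gm17473, which had at most 18 reads in any gate. Counts are per gene, so all values refer to the whole set of exons of a gene.

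Promoters of Tek and Tie1 are shown because the promoter sequences at hand covered them and not Ptprb, Angpt2 or Angpt1. They were marked for GGAA because ETS factors, which bind a GGAA core, are known regulators of endothelial genes. Each window runs from 250 bases before to 50 bases after the start of transcription that RefSeq gives (GRCm38.p6), written 5′ to 3′ along the gene, with GGAA and its reverse complement TTCC in capitals. The Tek window is chromosome 4, 94739039 to 94739338 (plus strand), and the Tie1 window is chromosome 4, 118489800 to 118490099 (minus strand).
Tek: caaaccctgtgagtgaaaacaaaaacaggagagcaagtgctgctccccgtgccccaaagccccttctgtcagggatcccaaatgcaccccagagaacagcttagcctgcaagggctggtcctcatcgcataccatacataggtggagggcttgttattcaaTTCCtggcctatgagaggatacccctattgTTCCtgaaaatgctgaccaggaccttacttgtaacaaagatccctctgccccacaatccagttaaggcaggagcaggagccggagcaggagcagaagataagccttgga
Tie1: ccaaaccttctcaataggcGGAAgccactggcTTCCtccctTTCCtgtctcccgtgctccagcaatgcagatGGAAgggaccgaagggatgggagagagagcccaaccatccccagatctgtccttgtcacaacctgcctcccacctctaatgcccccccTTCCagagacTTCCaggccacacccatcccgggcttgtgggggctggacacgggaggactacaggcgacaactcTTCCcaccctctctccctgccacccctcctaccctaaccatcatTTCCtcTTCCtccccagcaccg
GGAA on either strand occurred 2 times in the Tek window and 9 times in the Tie1 window. Over 32851 mouse promoter windows of the same length, 96% held at least 1 match with a median of 3. At least 2 matches were found in 84.6% of windows and at least 9 in 1.59%. The longer core AGGAAG, which contains GGAA, occurred 0 times in the Tek window and 2 times in the Tie1 window, and 35.4% of all windows held it. These matches describe the letters of the windows only.

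In the tumour, endothelial cells carried both receptors, the phosphatase and Angpt2, while macrophages held 1 read of the 4 genes. Tek was at 257.4 CPM in tumour CLEC (95% Poisson interval 254.8 to 259.9) and at 224.9 in tumour EC (221.6 to 228.3), and macrophages held 1 Tek read in 81 cells. Tie1 was at 311.3 and 296.7 CPM in CLEC and EC, and Ptprb at 365.96 and 269.1. Angpt2 was at 329.6 and 262.7 CPM. Tie1, Ptprb and Angpt2 each had 0 reads in macrophages. A count of 0, with 3 cells taken as its limit, allows reads in up to 3.70% of those cells. Over all tumour endothelial cells against macrophages, Tie1 was at least 8187-fold higher, Ptprb at least 8908-fold and Angpt2 at least 8205-fold, each against a floor of 3 reads over the macrophage gate. For Tek the ratio against that 1 read was 19757, with an exact counting interval of 3546 to 780359. All 4 measured members were thus at least 2-fold higher, where 25.1% of the 11696 genes measured were higher and 18% lower. These intervals cover counting error alone, since amplified reads without molecular identifiers are not independent molecules.

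**Figure D1:**
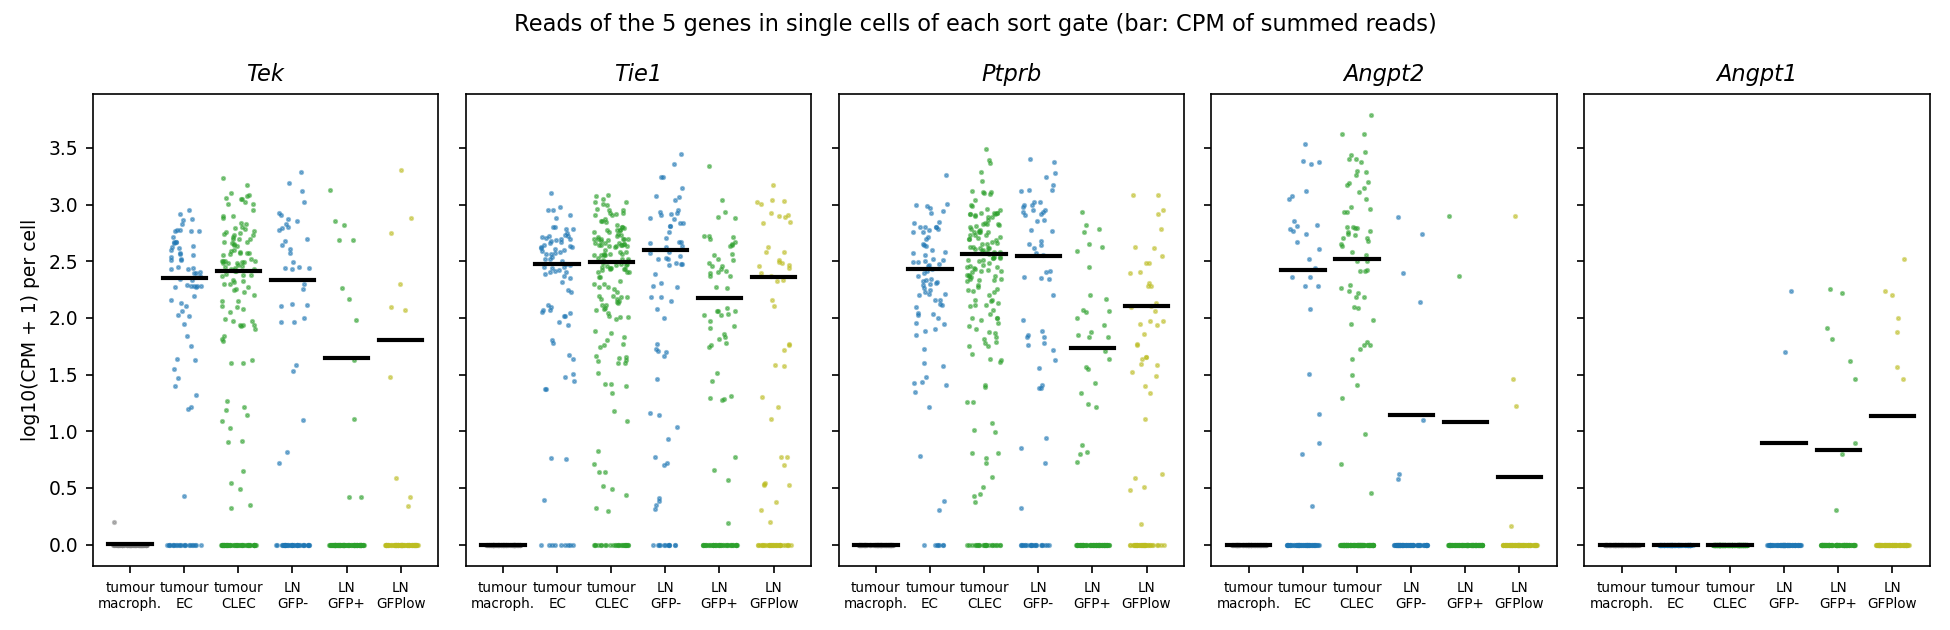
Level of each gene in every kept cell (points, log10 of CPM plus 1 on the vertical axis) by sort gate, with the CPM of a gate's summed reads as a black bar. Tie1 and Ptprb fill most tumour endothelial cells, Angpt2 has no reads in most cells and is high in a few, and Angpt1 appears in 18 LN cells and in no tumour cell.

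Single cells varied far more than the gate totals. Tek ranged from 0 to 1718 CPM over CLEC with a median of 92.96, and from 0 to 894 over EC with a median of 186.9. Reads of Tek were in 65.1% of CLEC (exact binomial interval 57.4 to 72.2) and 73.8% of EC (63.1 to 82.8). For Tie1 these shares were 84.6% and 89.3%, for Ptprb 85.8% and 91.7%, and for Angpt2 36.7% and 32.1%. With cells thinned to 100000 reads the shares for Tek were 62.3% and 74.4%, and for Angpt2 34.7% and 29.3%. These intervals cover the counting of cells within a gate, which is 1 sample, and the shares of the gates were not tested against each other. Per kb of exon, which allows genes to be compared, Angpt2 had the highest level over all tumour endothelial cells (83.2 CPM per kb), above Tie1 (62.3) and Tek (52.3), with Ptprb lowest.

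Tumour CLEC were set against tumour EC to ask whether endothelial cells of the Csf1r lineage carry the axis differently from their neighbours. None of the 4 measured members was 2-fold apart, where 6.95% of 10971 measured genes were higher in CLEC and 8.25% lower. The log2 ratios of CLEC over EC, on CPM plus 1, were 0.19 for Tek, 0.07 for Tie1, 0.44 for Ptprb and 0.33 for Angpt2, with a median of 0.26 beside -0.12 over all measured genes. Scaling by TMM or by size factors raised every log2 ratio here by 0.14 or 0.13 and left all 4 within 2-fold. Tie1 was at 223.4 CPM on CLEC plate KM3 and 393 on CLEC plate KM4, on either side of the 296.7 on EC plate KM2. Tek (275.8 on KM3 and 240.1 on KM4 against 224.9 on KM2), Ptprb (351.3 and 379.6 against 269.1) and Angpt2 (286.7 and 369.6 against 262.7) were higher on both CLEC plates. The Tie1 levels of the 2 CLEC plates were further apart than those of the 2 gates.

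**Figure D2:**
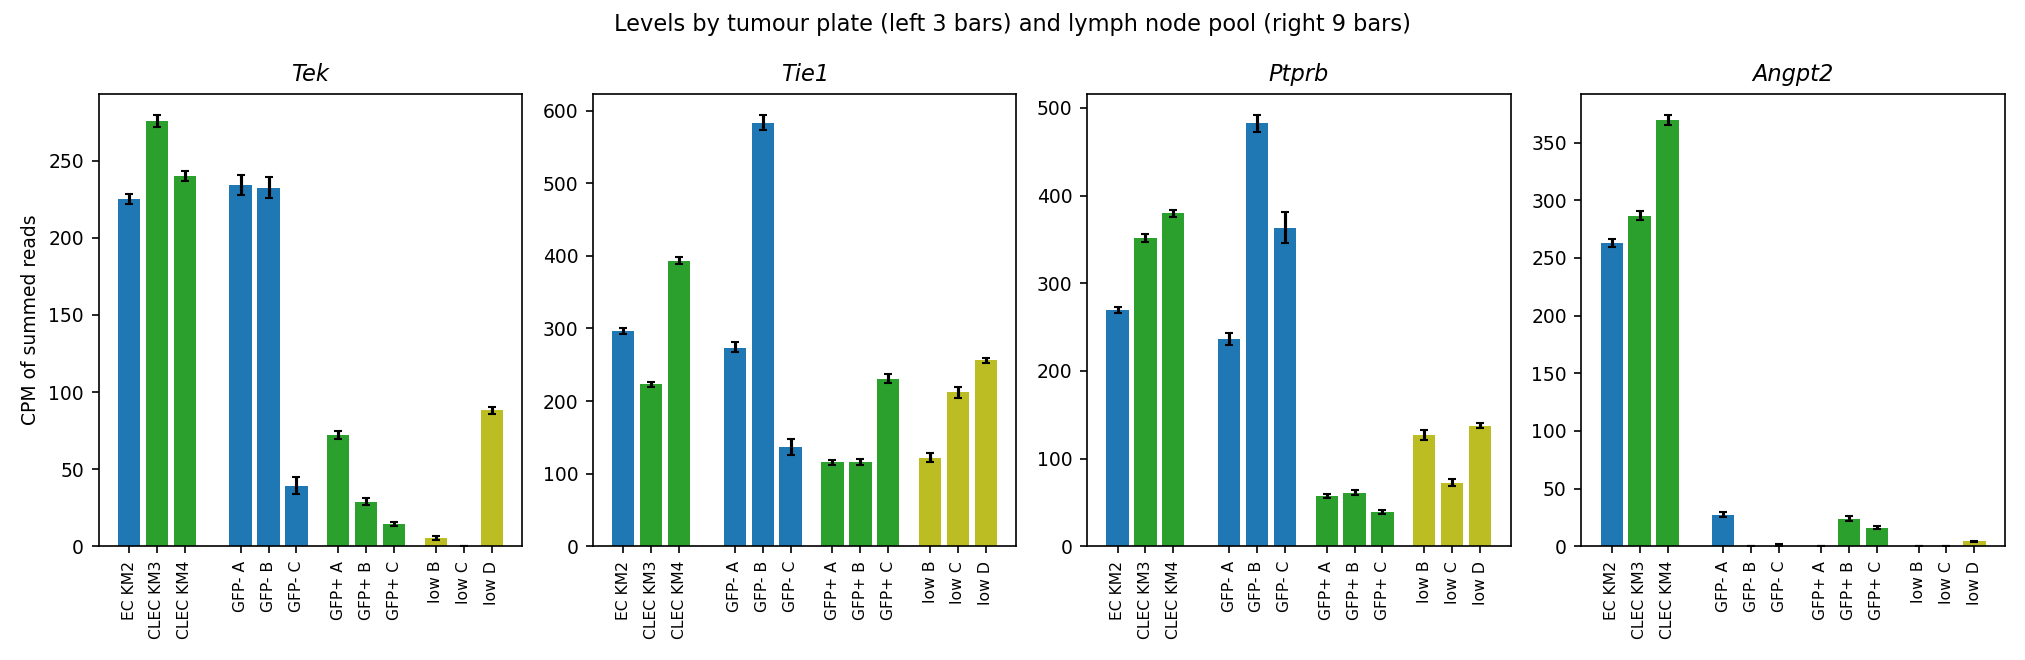
CPM of summed reads (vertical axis, from 0, with Poisson 95% intervals as bars) on each tumour plate and in each LN pool, with GFP- cells in blue, GFP+ cells in green and GFPlow cells in olive. Tumour plates sit close together for Tek, Ptprb is lower in all 3 GFP+ pools than in any GFP- pool, and Angpt2 is high only on the tumour plates among the units drawn.

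In the LN both receptors and Ptprb were lower in GFP+ than in GFP- cells. Tek was at 43.7 CPM in GFP+ cells (42.4 to 45.03, 98 cells) and 214.5 in GFP- cells (210.3 to 218.7, 74 cells), a log2 ratio of -2.27. Tie1 was at 148.7 and 394 CPM, a ratio of -1.40, and Ptprb at 53.1 and 354.4, a ratio of -2.72. Thus 3 of 5 measured members were at least 2-fold lower and none higher, where 19.2% of 11140 measured genes were lower and 20.1% higher. Reads of Tek were in 12.2% of GFP+ cells (6.49 to 20.4) and 47.3% of GFP- cells (35.6 to 59.3), those of Tie1 in 55.1% and 83.8%, and those of Ptprb in 31.6% and 70.3%. Thinning to 100000 reads gave 11.6% and 45.1% for Tek, 52.6% (42.1 to 62.97) and 71.8% (59.9 to 81.9) for Tie1, and 29.5% and 63.4% for Ptprb. The gap between the Tie1 shares narrowed most.

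Pools A, B and C were not alike. Ptprb was at 57.6, 60.9 and 38.7 CPM in the GFP+ cells of pools A, B and C, and at 236.2, 482 and 363.1 in the GFP- cells, so that every GFP- pool lay above every GFP+ pool. Tek was at 72.01, 28.96 and 14.3 CPM in GFP+ cells and at 234.2, 232.5 and 39.03 in GFP- cells. It was lower in GFP+ cells within each pool, though the GFP- cells of pool C, 8 in number, lay below the GFP+ cells of pool A. Tie1 was at 115.6, 115.8 and 230.9 CPM in GFP+ cells and at 273.7, 583 and 136.7 in GFP- cells, so pool C ran the other way, and without pool B its log2 ratio was -0.63, within 2-fold. Within the LN gates 1 cell could weigh heavily: a single cell held 36.04% of the Tek reads of GFP+ cells and 58.5% of those of GFPlow cells.

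Since the gates differ in blood-like cells, the comparison was repeated among lymphatic-like cells. Ptprb was at 34.7 CPM in 82 GFP+, 137.4 in 62 GFPlow and 361.9 in 28 GFP- lymphatic-like cells. Tek was at 33.6, 66.3 and 278.9 CPM, and Tie1 at 145.6, 189.5 and 419, in the same order. The GFP+ to GFP- log2 ratios there were -3.35 for Ptprb, -3.02 for Tek and -1.52 for Tie1, no smaller than with the blood-like cells included. Different clusters hold these cells: cluster 2 held 22 of the 28 GFP- cells and none of the GFP+ cells.

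GFPlow cells were compared within the pools they share with each other gate, B and C, which left 29 GFPlow cells to be set against 34 GFP- and 55 GFP+ cells. All 4 measured members differed at least 2-fold from GFP- cells, Angpt1 (described with the ligands) being higher. Tek (2.55 and 196.8 CPM, log2 ratio -5.80), Tie1 (169.9 and 501, -1.55) and Ptprb (97.97 and 460, -2.22) were lower, where 30.5% of 10613 measured genes were lower and 25.3% higher. Tek rested there on 1 of 29 GFPlow cells. Without pool B the Tie1 ratio turned to 0.63. From GFP+ cells 2 of 4 measured members differed, with Angpt1 higher and Tek lower (2.55 and 21.4 CPM, -2.66), where 25.4% of 10470 measured genes were lower and 20.5% higher. Tie1 (169.9 and 174.7 CPM, -0.04) and Ptprb (97.97 and 49.5 CPM, 0.97) were within 2-fold, and Ptprb passed it under 4 of the alternatives, with ratios of 1.05 to 1.74. Pool D, which held GFPlow cells only, gave 88.03 CPM for Tek, with 59.2% of it in 1 cell, 256.01 for Tie1 and 137.2 for Ptprb. Both comparisons share the GFPlow cells, and the one with GFP- cells shares those with the comparison of GFP+ and GFP- cells.

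Over the 6 gates the order of Tek levels was tumour CLEC, tumour EC, LN GFP-, LN GFPlow, LN GFP+ and macrophages. Both CLEC plates lay above tumour EC. Pool values of neighbours in that order overlapped for LN GFP-, GFPlow and GFP+ cells, and the tumour EC value lay within the range of the LN GFP- pools. Tie1 was highest in LN GFP- cells, followed by tumour CLEC, tumour EC, LN GFPlow, LN GFP+ cells and macrophages, with overlapping plates or pools between neighbours, except that tumour EC (296.7) lay above all GFPlow pools (121.8 to 256.01) and macrophages had 0 reads. For Ptprb the order was tumour CLEC, LN GFP-, tumour EC, LN GFPlow, LN GFP+ and macrophages, and the GFPlow pools (72.6 to 137.2 CPM) lay above the GFP+ pools and below tumour EC without overlap. Angpt2 was highest in tumour CLEC, followed by tumour EC, LN GFP-, LN GFP+ and LN GFPlow cells, and the ranges of the LN pools overlapped.

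By cluster class, lymphatic-like LN cells (82 GFP+, 62 GFPlow, 28 GFP-) had lower levels of 3 of 5 measured members than 48 blood-like LN cells, and a higher level of Angpt1. Tie1 was at 198.6 and 452 CPM (log2 ratio -1.18), Ptprb at 118.3 and 302.5 (-1.35) and Angpt2 at 7.68 and 22.2 (-1.42). Of 10921 measured genes, 16.6% were lower in lymphatic-like cells and 30.1% higher. Tek was at 78.5 and 145.9 CPM, a ratio of -0.89 within 2-fold, and 16.9% and 52.1% of cells held Tek reads. That call was close to the threshold: TMM or size factor scaling lowered every ratio by 0.12 or 0.18 and brought Tek to -1.01 or -1.06. Without pool B Tek was at -1.34, and without pool D at -1.20. Without pool D Tie1 came to -0.91, and the stricter cell filter brought Tie1 and Ptprb to -0.99 and -0.84. Angpt2 rested on 7 lymphatic-like and 6 blood-like cells, and without pool A its ratio was 1.51.

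Within both LN classes Ptprb was uneven, and within the lymphatic-like class so were the receptors, patterns noticed after the values were seen. Of the blood-like clusters, cluster 0 carried all 6 high endothelial venule markers (19 cells, led by Ccl21a and Ctla2a) and cluster 1 carried 4 capillary markers (29 cells, led by Cxcl12 and Ly6c1). Ptprb was at 33.8 CPM in cluster 0 (30.8 to 36.9) and 547 in cluster 1 (535 to 558), with reads in 8 of 19 and 25 of 29 cells. Tie1 was at 440 and 462 CPM in these clusters and Tek at 176.9 and 117.8, so neither receptor showed a gap of that size. In pool A, Ptprb was at 79.98 CPM in 12 cells of cluster 0 and 434 in 16 cells of cluster 1. Pool B gave 1.51 CPM in 2 cells and 618 in 12, and pool C gave 0 reads in 3 cells and 988 CPM in 1.

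Lymphatic-like cluster 2, which carried all 4 sinus ceiling markers and is led by Cd36 and Ackr4, stood apart from the other lymphatic-like clusters. Tek was at 415 CPM in its 25 cells (406 to 424), above the 246.4 of all tumour endothelial cells, with reads in 44% of cells. One of these cells, a GFPlow cell of pool D, held 3464 of its 8652 Tek reads, and its 22 GFP- cells alone gave 305.7 CPM. Tek was at 230.7 CPM in the 12 cells of pool A and 363.4 in the 8 cells of pool B, and at 0 reads in 3 cells of pool C. Ptprb was at 461 CPM in cluster 2 and Tie1 at 352.7. In the lymphatic-like clusters 3, 4, 5 and 7, Tek was at 8.22 to 63.05 CPM, Tie1 at 79.6 to 224.1 and Ptprb at 24.7 to 84.98. Cluster 4 is also led by Glycam1 and Madcam1, known from high endothelial venules. Without cluster 2, the lymphatic-like to blood-like ratio was -2.20 for Tek and -2.10 for Ptprb.

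**Figure D3:**
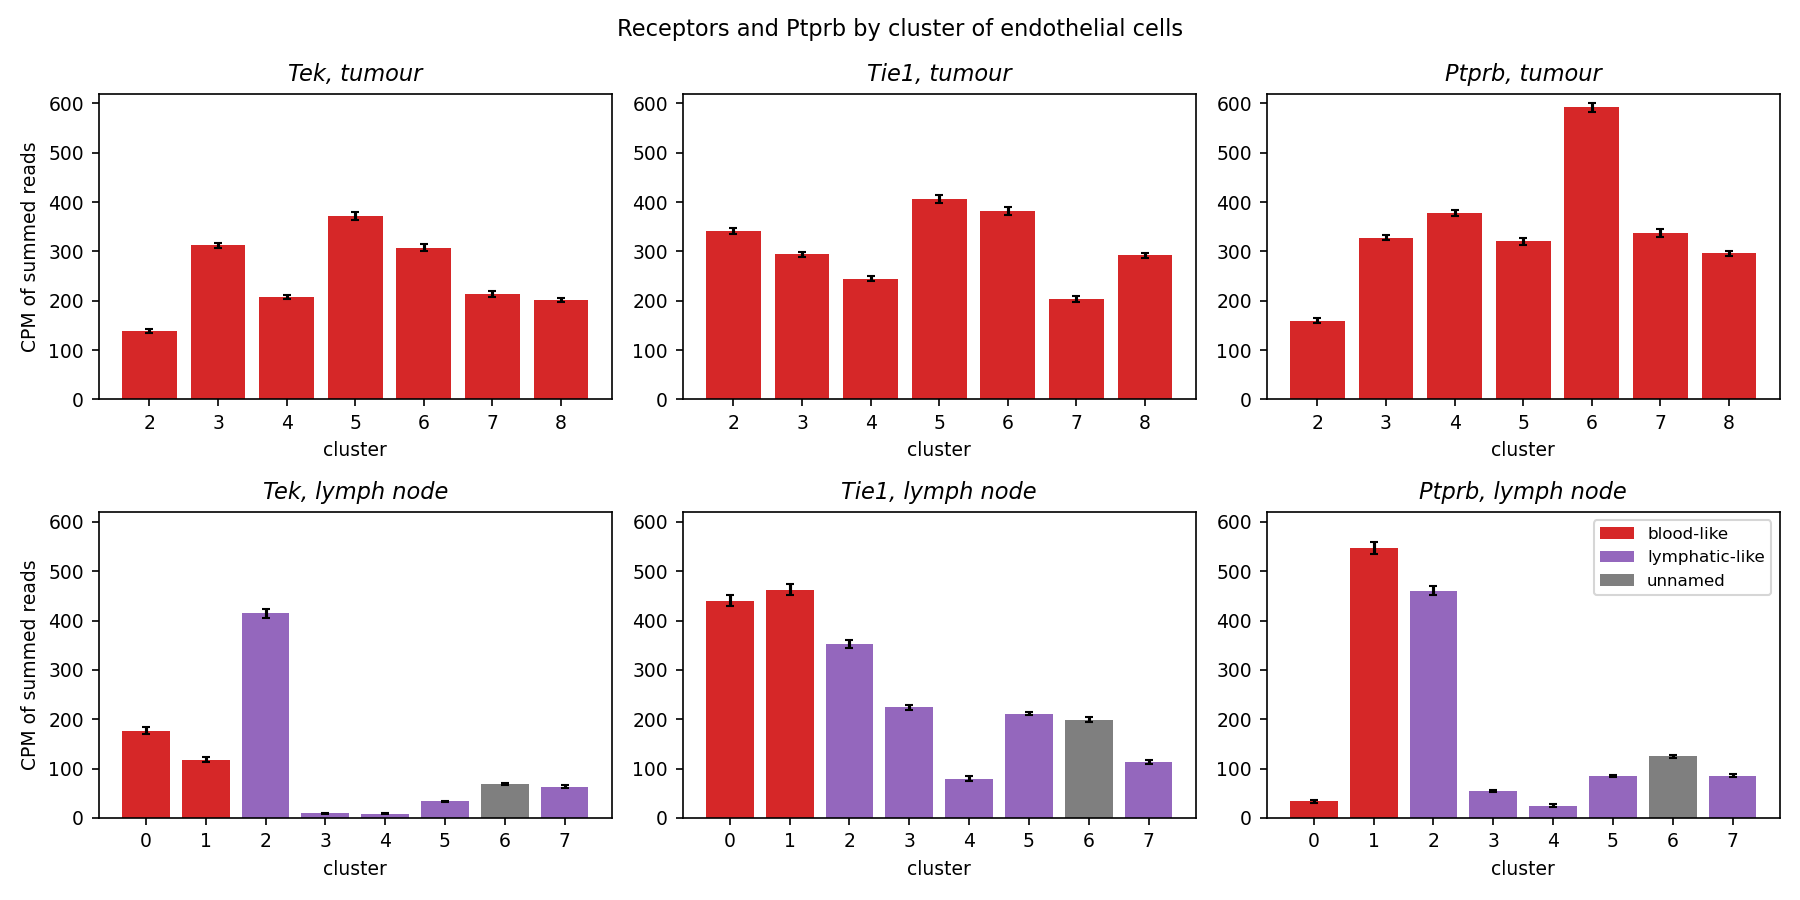
CPM of Tek, Tie1 and Ptprb (vertical axis, summed reads with Poisson 95% intervals) in tumour endothelial clusters 2 to 8 (upper row) and LN clusters 0 to 7 (lower row), coloured by cluster class. Ptprb is low in blood-like LN cluster 0 and high in cluster 1, and Tek is higher in lymphatic-like cluster 2 than in every other LN cluster.

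All 7 tumour endothelial clusters were blood-like, and the receptors were more even among them than among the lymphatic-like LN clusters. Tek ranged from 138.2 CPM in cluster 2 to 371.8 in cluster 5, Tie1 from 204.1 in cluster 7 to 407 in cluster 5, and Ptprb from 159.4 in cluster 2 to 592 in cluster 6. Cluster 5 is led by Igfbp5 and Cldn5, and cluster 6 by Eogt and Gja4, the gene of an arterial connexin. Cluster 2, led by Prnd and Tnfrsf9, had the lowest level of both Tek and Ptprb.

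Angpt2, the ligand made by endothelium, set the tumour apart from the LN. It was at 262.7 CPM in tumour EC (259.1 to 266.3) and 12.9 in LN GFP- cells (11.9 to 13.96), a log2 ratio of 4.25, with reads in 32.1% (22.4 to 43.2) and 9.46% (3.89 to 18.5) of cells. It was the only 1 of 4 measured members at least 2-fold apart, where 25.5% of 11454 measured genes were higher in tumour EC and 20.9% lower. Tek (0.07), Tie1 (-0.41) and Ptprb (-0.40) were within 2-fold between these gates. Tumour and LN cells were deposited in separate tables and sequenced from separate plates, so tissue and plate cannot be told apart. The LN GFP- level rested on pool A, with 27.2 CPM beside 0.05 and 0.43 in pools B and C, and 1 cell held 66.8% of its reads. Tumour EC against each pool gave ratios of 3.23, 7.97 and 7.53, and the ratio was 7.88 without pool A. Against the blood-like LN GFP- cells alone, the Angpt2 ratio was 3.42. The LN GFP+ and GFPlow gates held 2 and 4 cells with Angpt2 reads, at 11.2 and 2.94 CPM, and 1 cell of the GFP+ gate held 58.7% of its Angpt2 reads.

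Within the tumour, Angpt2 was high in a minority of cells. Its level ran from 0 to 6184 CPM over CLEC and from 0 to 3419 over EC, with a median of 0 in both. Clusters 2 and 8 held 32.4% of tumour endothelial cells and 82.9% of their Angpt2 reads, and 59 of the 89 cells with reads. Cluster 8, led by Gpihbp1 and Apln, was at 829 CPM with reads in 81.6% of 49 cells, and cluster 2 was at 502 CPM with reads in 57.6% of 33 cells. Cluster 3, led by interferon-induced Tgtp1 and by Lrg1, was at 181.6 CPM, and clusters 4 to 7 were at 18.7 to 55.1. On plates KM2, KM3 and KM4, Angpt2 was at 976, 762 and 839 CPM in cluster 8 (7, 21 and 21 cells) and at 471, 345.2 and 630 in cluster 2 (19, 6 and 8 cells), so cluster 8 was higher on each plate.

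CLEC and EC held almost the same share of these 2 clusters but divided it differently. Together clusters 2 and 8 made up 33.1% of CLEC and 30.95% of EC. Within these 2 clusters, most CLEC were in cluster 8 (42 CLEC, 7 EC) and most EC in cluster 2 (14 CLEC, 19 EC). Cluster 7, led by Lrg1 and Igfbp3, with Angpt2 reads in 3 of 39 cells, held 36 CLEC and 3 EC.

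**Figure D4:**
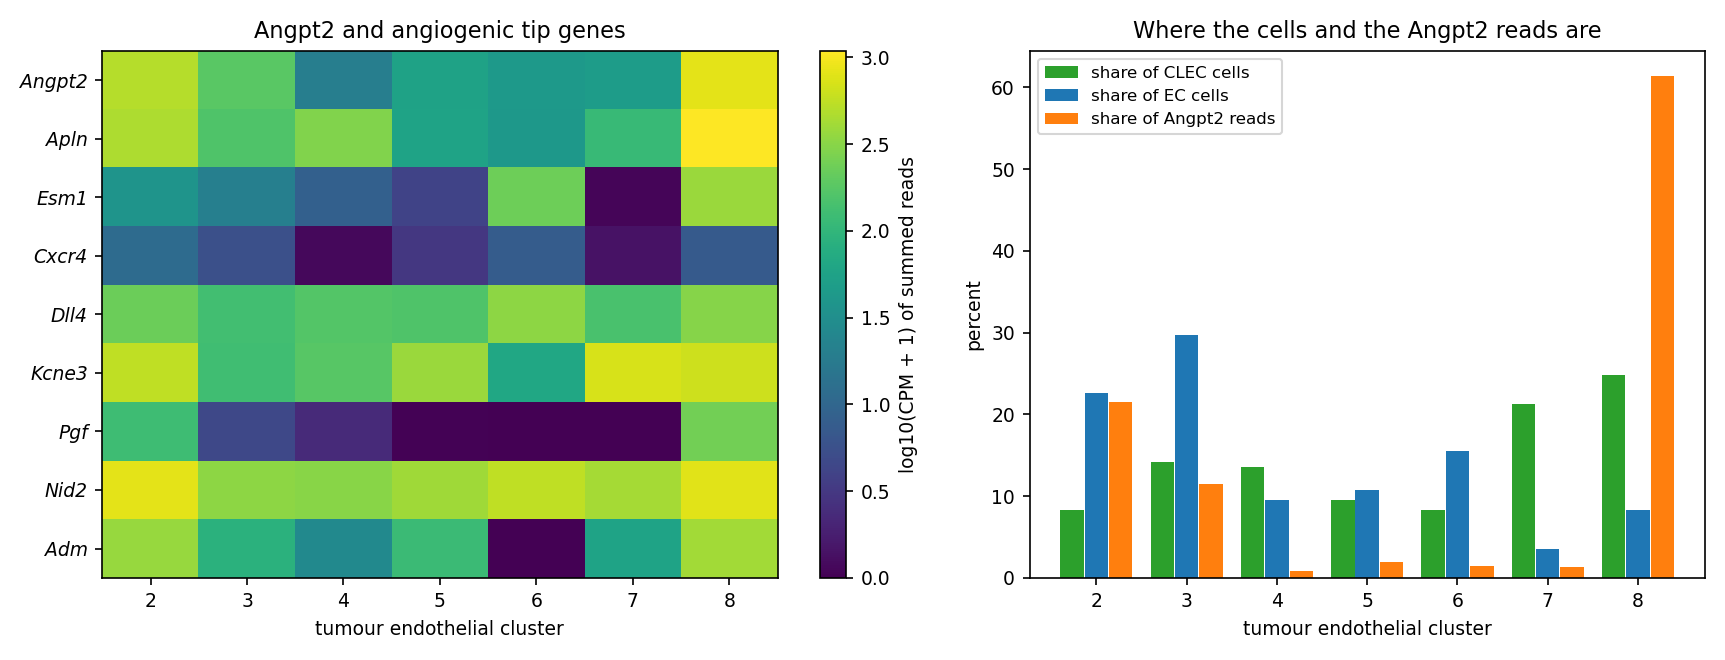
Left, log10 of CPM plus 1 of Angpt2 and 8 angiogenic tip genes in tumour endothelial clusters 2 to 8. Right, the percentage of CLEC cells, EC cells and Angpt2 reads in each cluster, where cluster 8 holds 61.4% of the Angpt2 reads, 24.9% of CLEC and 8.33% of EC.

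Several genes of angiogenic tip cells, which lead sprouts, were high in the same clusters. Apln, the apelin ligand, was at 1091 CPM in cluster 8 and 464 in cluster 2, and Adm, the adrenomedullin gene, at 415 and 365.5. Pgf, a VEGF family ligand, was at 243.3 and 123.1 CPM there and at most 3.51 in clusters 3 to 7. Not all tip genes followed: Kcne3 was highest in cluster 7 (709 CPM) and Dll4 in cluster 6 (333.4 CPM). Apln and Adm are among the genes that led these clusters, so their level there is not independent of the clustering. Over tumour endothelial cells and 4164 candidate genes, the 5 genes most like Angpt2 by Spearman correlation were Kit (0.50), Cxcr4 (0.47), Adm (0.46), Apln (0.43) and Anxa6 (0.43). These cells share plates, and Angpt2 had a Spearman correlation of 0.13 with reads per cell.

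Receptors and ligand met in part of the cells. Among tumour CLEC, 97 cells had reads of both Tek and Tie1, 46 of Tie1 alone, 13 of Tek alone and 13 of neither. Among tumour EC these numbers were 59, 16, 3 and 6. All of Tek, Tie1 and Ptprb were found in 57.3% of tumour endothelial cells, and none of the 3 in 1.98%. Tek reads were in 58.4% of the 89 cells with Angpt2 and in 73.2% of those without it, while Tie1 was in 88.8% and 84.8%, and Ptprb in 87.6% and 87.8%. The lower share of Tek beside Angpt2 was seen in CLEC (53.2% and 71.96%) and less in EC (70.4% and 75.4%). The Spearman correlation over the cells was -0.20 for Tek with Angpt2, 0.23 for Tek with Tie1 and 0.02 for Tie1 with Ptprb, weak values in sparse counts. In the LN, 29 cells (11.6%) held reads of Tek, Tie1 and Ptprb together.

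Angpt1 had 0 reads in every tumour endothelial cell kept, which by the same limit of 3 cells allows reads in up to 1.19% of them, and 0 in the 81 macrophages. In the LN it was found in 18 cells, 9 GFP+, 7 GFPlow and 2 GFP-, with 1.03, 69.1 and 329.2 CPM as the lowest, median and highest level in those cells. Of these cells 16 were lymphatic-like, 2 unnamed and 0 blood-like, and 10 came from pool A. Against 0 reads in 48 blood-like cells, Angpt1 was at least 95.97-fold higher in lymphatic-like cells (9.67 CPM), where 9.30% of cells had reads (5.41 to 14.7). The limit of 3 cells allows reads in up to 6.25% of the blood-like cells, and their exact binomial interval reaches 7.40%. GFP+ and GFP- cells were within 2-fold (5.80 and 6.88 CPM), and 95.4% of the GFP- reads came from 1 cell. That log2 ratio of -0.21 was not stable: it was 1.69 without the top cell of each gate, 1.05 without pool A and -1.72 among lymphatic-like cells alone. GFPlow cells of pools B and C had 150 reads, all in 2 cells. GFP- cells of these pools had 0, a ratio of at least 43.8-fold, and GFP+ cells had 57 in 1 cell, a log2 ratio of 1.59. Without the cell with most reads, both ratios were within 2-fold. Of 11 fibroblast and pericyte markers, the Angpt1 cells held a median of 0.5 with reads and other LN cells 0, and of 6 platelet markers both held 1.

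Other genes of the pathway were followed as 7 lists with 64 genes. Partners beside the members include the integrins that bind angiopoietins and Ecscr, an endothelial surface protein. None of the 5 measured partners was 2-fold apart between tumour CLEC and EC, where 6.95% of all measured genes were higher and 8.25% lower. In tumour EC against LN GFP- cells 3 of 5 were higher, beside 25.5% of all measured genes, among them Itgb1 (1511 and 392 CPM, log2 ratio 1.94) and Itgb3 (96.3 and 32.5, 1.54). The shedding enzymes are proteases that can cut receptors from the surface. In LN GFP+ cells 2 of 3 were higher than in GFP- cells, beside 20.1% higher and 19.2% lower of all measured genes. These were Mmp14 at 288.3 and 84.6 CPM (1.76) and Adam17 at 81.1 and 28.4 (1.48). The same 2 of 3 were higher in tumour EC than in LN GFP- cells, with Mmp14 at 496 CPM.

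All 6 measured of the genes listed here as VE-PTP substrates and junction partners were within 2-fold between tumour CLEC and EC. Their median log2 ratio was 0.29. Most genes were within 2-fold there, with 6.95% of all measured genes higher and 8.25% lower. In LN GFP+ cells 4 of 6 were lower than in GFP- cells, beside 19.2% lower and 20.1% higher of all measured genes. Lower were Jup, the plakoglobin gene (25.4 and 315.5 CPM, -3.59), and Cdh5, the VE-cadherin gene (73.6 and 168.6, -1.18). So were Kdr, the VEGFR2 gene (479 and 963, -1.01), and Arhgef28 (12.6 and 26.9, -1.03), whose tie to VE-PTP was not examined here. Both ratios were close to the 2-fold threshold, and Arhgef28 reads were in 6.12% of GFP+ and 14.9% of GFP- cells. Kdr was lower in tumour EC than in LN GFP- cells (390 and 963 CPM, -1.30), the only 1 of 6 apart there. Of all measured genes, 20.9% were lower in that comparison and 25.5% higher. Among other endothelial receptor type phosphatases, Ptprg was lower in LN GFP+ than in GFP- cells (14.9 and 129.3 CPM, -3.03). It was the only 1 of 5 apart, beside the same 19.2% lower and 20.1% higher over all measured genes. Ptprg was also lower in lymphatic-like than in blood-like cells (11.8 and 205.7, -4.02).

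Of the adaptor and PI3K-AKT-FOXO list, 12 of 14 measured genes were within 2-fold between tumour CLEC and EC. That is near the share over all measured genes, of which 6.95% were higher and 8.25% lower. Pik3r1, a regulatory subunit of PI3K, was at 62.5 and 30.7 CPM (1.00) in CLEC and EC. The other gene apart was below 20 CPM in both gates. In LN GFP+ against GFP- cells, where 20.1% of all measured genes were higher and 19.2% lower, 4 of 15 were higher, among them Pdpk1 (32.3 and 6.67 CPM, 2.12) and Akt2 (67.1 and 20.3, 1.67), and 2 were lower, among them Pik3r1 (19.1 and 56.7, -1.53). These counts are near the shares over all genes. Pdpk1 reads were in nearly equal shares of cells, 10.2% of GFP+ and 9.46% of GFP-, and those of Akt2 in 20.4% and 9.46%. Of 5 FOXO target genes measured between tumour CLEC and EC, Ccng2 (27.9 and 10.7 CPM, 1.30) and Bcl6 (13.7 and 5.45, 1.19) were higher. Sesn3 (7.78 and 16.6, -1.0002) was lower, at the 2-fold threshold. Of all measured genes, 6.95% were higher there and 8.25% lower. Bcl6 reads were in 9.47% of CLEC and 10.7% of EC cells. Bcl6 and Sesn3 were named in this comparison after their values were seen. In LN GFP+ against GFP- cells 2 of 6 FOXO targets were higher and 3 lower. Irs2, an insulin receptor substrate, was at 34.1 and 4.55 CPM (2.66) and Insr, the insulin receptor, at 8.46 and 90.05 (-3.27). In tumour EC against LN GFP- cells 4 of 5 FOXO targets were lower, led by Bcl6 (5.45 and 22.04 CPM, -1.84). Shares of cells with reads did not follow for Cdkn1b (36.9% in tumour EC and 20.3% in LN GFP-) and Sesn3 (16.7% and 9.46%). They were nearly equal for Bcl6 (10.7% and 10.8%) and lower in tumour EC for the remaining gene (8.33% and 12.2%). Insr was higher (238.01 and 90.05, 1.39). Of all measured genes, 20.9% were lower in tumour EC and 25.5% higher.

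Of 15 transcription factors reported to act on Tek, Tie1 or Angpt2, 12 of 13 measured were within 2-fold between tumour CLEC and EC. Gata2, a factor of endothelial and blood lineages, was the exception (54.3 and 133.7 CPM, -1.28), where 6.95% of all measured genes were higher and 8.25% lower. In LN GFP+ against GFP- cells 6 of 14 were lower and 1 higher, beside 19.2% and 20.1% of all measured genes. The shear-responsive factors Klf2 (15.3 and 245.4 CPM, -3.92) and Klf4 (9.41 and 140.5, -3.76) and the Notch target Hey1 (0.54 and 21.5, -3.87) were lower, and Tal1 was higher (23.95 and 3.94, 2.34). Hif1a, the hypoxia factor, was higher in tumour EC than in LN GFP- cells (505 and 156.2 CPM, 1.69). Klf2 (67.2 and 245.4, -1.85) and Klf4 (39.96 and 140.5, -1.79) were lower there. In all 3 of 14 were higher and 4 lower, beside 25.5% and 20.9% of all measured genes.

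GFPlow cells of pools B and C were set against both other LN gates in these lists. Against GFP+ cells, 5 of 13 transcription factors were higher and 0 lower, where 20.5% of all measured genes were higher and 25.4% lower. Among them were Foxc2, a factor of lymphatic valves (33.9 and 0.28 CPM, 4.77), and Klf4 (70.7 and 16.6, 2.02). Few cells carried Foxc2, with reads in 10.3% of 29 GFPlow and 5.45% of 55 GFP+ cells. Of FOXO targets 4 of 7 were higher and 1 lower, with Insr at 62.1 and 7.10 CPM (2.96) and its reads in 17.2% and 7.27% of cells. Cdh5 was the 1 of 6 junction partners that was higher (210.7 and 66.6, 1.65). Against GFP- cells, Jup (66.6 and 299.2 CPM, -2.15) and Klf2 (41.9 and 320.1, -2.90) were lower, with 2 of 6 junction partners lower and 3 of 13 transcription factors lower and 3 higher. Those counts are near the 30.5% lower and 25.3% higher over all measured genes.

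Across 13 plate or pool groups and 10510 candidate genes, the genes most like Tek by Pearson's r on log2 of CPM plus 1 were She (0.95), Cav2 (0.94), Trp53i11 (0.94), Actn4 (0.93) and Robo4 (0.92). Those most like Tie1 were Tmem204 (0.97), Chst15 (0.96), Egfl7 (0.96), Ecscr (0.96) and Dock9 (0.95). Ptprb was closest to Crip2 (0.98), Igfbp7 (0.98), Tmem88 (0.98), Cyyr1 (0.97) and Adgrf5 (0.97). For Angpt2 these were Traf3ip2 (0.93), Sgce (0.93), Bean1 (0.89), Asb4 (0.89) and Inhbb (0.89). The 13 groups share tissues and gates, and they include the macrophage plate, where these 4 members are at or near 0, so high values are common and describe these groups only. Over single tumour endothelial cells the highest Spearman correlation was 0.33 for Tek (with H2-T23), 0.28 for Tie1 (with C1qtnf6) and 0.35 for Ptprb (with Eng), weak values in sparse counts.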

How the data were processed

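Single cells were amplified with a modified SMART-seq2 protocol with 20 cycles and made into Nextera XT libraries, per the labels' protocols. The authors deposited unnormalised counts of reads for each gene, on mouse build mm10. Subread 1.4.6-p2, STAR 2.4.1b and FastQC 0.11.4 are listed, with no roles, in the submitters' processing notes. Values were whole numbers, 92 rows sharing a symbol were summed, and no 2 wells held identical counts. Cells with at least 50000 reads, 1000 genes and at most 25% mitochondrial reads were kept. No doublet caller was run on singly sorted wells.

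Levels are CPM of summed reads with Poisson 95% intervals, and shares of cells carry Clopper-Pearson intervals. A gene counted as measured where 1 group reached 1 CPM and had it in 5% or more of its cells, and called at 2-fold on CPM plus 1. Lower bounds use a floor of 3 reads over a group. The 5 members, the lists and the rules were chosen with earlier results of these data known. Named were all members, at most 4 list genes per comparison at least 2-fold apart with at least 20 CPM in the higher group, and the 5 most alike genes. Cells were clustered with scanpy 1.11.5 (2000 variable genes, 20 components, 15 neighbours, Leiden resolution 1), the tumour and LN tables apart. A cluster was named by at least 3 markers found in 30% of its cells, and stayed unnamed when its 10 leading genes held more markers of another lineage or 3 or more predicted or ribosomal genes, or when its median depth was far below that of its table. That clause, and the place given to haematopoietic markers, were set after the clusters were seen. TMM and size factors came from edgeR 4.0.16. Alternatives covered cell filters, pseudocount, per-cell means, thinning, scaling, named clusters, clustering resolution and each plate or pool left out. The ratio script was tested on simulated data.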

Additional observations from a re-analysis of the deposited data

Results flagged for a closer look

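The ratios of summed reads of GFP+ over GFP- endothelial cells had opposite signs in tumour and LN for Tek and Ptprb. For Tek the log2 ratio of GFP+ over GFP- cells was 0.19 in the tumour, where both CLEC plates lay above the EC plate, and -2.27 in the LN, where all 3 pools had less Tek in GFP+ cells. For Ptprb the ratios were 0.44 and -2.72, with the same agreement of plates and pools. Other measures did not have opposite signs: in the tumour the share of cells with reads was lower in CLEC than in EC for Tek (65.1% and 73.8%) and Ptprb (85.8% and 91.7%), as was the median Tek level (92.96 and 186.9 CPM). The tumour ratios are within 2-fold, each rests on a single EC plate, and the difference between tissues was not tested. Tie1 had 4 reads in the GFP+ cells from blood, above the floor of 3 reads, and all 4 were in 1 of 7 cells.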

How the results depend on the processing

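Leaving out pool B changed most. Without it the number of members at least 2-fold apart fell from 4 to 2 for LN GFPlow against GFP- cells and from 2 to 1 for GFPlow against GFP+ cells, with Tie1 at a log2 ratio of 0.63 and Angpt1 at 0 in the first and Angpt1 at -1.63 in the second. In the second, a pseudocount of 5 CPM and leaving out the top cell of each member also gave 1. With no filter on cells with reads, 2 members differed between tumour EC and LN GFP- cells, Angpt1 being added. Angpt2 turned to 1.51 for lymphatic-like against blood-like cells without pool A. The other 95 of 100 recomputed member counts stayed within 1.5 times the reported one, as did 89 of 93 counts of genes. For tumour CLEC against EC, 1668 genes were 2-fold apart, but 814 with a pseudocount of 5 CPM and 3202 with no filter on cells with reads. That last setting also gave 6690 against 4380 genes for LN GFP+ against GFP- and 7719 against 5098 for lymphatic-like against blood-like cells. Of 431 member ratios 4 were counted as reversed, a count limited to ratios at least 2-fold apart in the reported setting. Sign changes of ratios within 2-fold were not counted. Angpt1 in LN GFP+ against GFP- cells, for example, went from -0.21 to 1.69 without the top cell of each member. Tek and Ptprb stayed at least 2-fold lower in LN GFP+ cells under every setting tried (-3.14 to -2.01 and -3.35 to -2.34). Angpt2 between those gates ran from -1.69 to 4.22, with reads in 2 GFP+ and 7 GFP- cells. The alternatives without each member's top cell, and those restricted to 1 cluster class or without cluster 2, were added after the data were seen. Values resting on under 10 cells, among them Angpt1 and LN Angpt2, are limited by depth and cell number. No paired test was run, since no difference was tested here. Ratios within pools A, B and C, where GFP+ and GFP- LN cells were both collected, were -1.69, -2.96 and -1.39 for Tek and -2.02, -2.97 and -3.20 for Ptprb.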

Other observations

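The 7 kept GFP+ blood cells fell in the unnamed LN cluster, and 1 of them held 1 Tek, 4 Tie1, 1 Ptprb and 2 Angpt1 reads, with 0 for Angpt2. The 2 empty wells held 0 reads of the 5 genes. Wells left out by the filter held reads of all 5 genes, with 3580 of Tie1, 4418 of Ptprb, 419 of Angpt2 and 2222 of Angpt1.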
